A study of Mus musculus with 10 samples.

Results

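T cell identity, activation and trafficking genes were examined as a group of 34 genes, of the 19938 genes that had a probe bearing 1 gene symbol alone. The members were chosen with earlier results of these data known and were matched to probes by symbol. Of the 34, 31 had such a probe, 1 probe for each gene. Lck, Tcf7 and Il2rg had none and were not analysed here. The arrays hold RNA of whole subcutaneous tumors of MC38, a colon carcinoma cell line, grown in C57BL/6 mice. In 1 group of 5 mice the tumor, at about 40 mm2, received 50 µg of CpG1826 in 50 µL of PBS. In the other group of 5 mice it received PBS. CpG1826 is a synthetic DNA oligonucleotide whose unmethylated CpG motifs are sensed by TLR9, a receptor of mouse dendritic cells, macrophages and B cells. Tumors of CpG1826 mice were frozen 6 h after injection. The protocol text speaks of CpG1826 alone, and PBS tumors were taken to follow the same schedule. Mice are named by their numbers in the labels: 26, 29, 482, 592 and 661 for PBS, and 50, 58, 183, 189 and 595 for CpG1826. The labels name neither age nor sex. A grafted tumor also holds skin, vessels and infiltrating leukocytes, so each value averages over all of its cells. In such a sample, fewer T cells and less of a transcript per T cell cannot be told apart.

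A T cell recognises antigen through a receptor whose signal is carried by the CD3 chains and CD247, with CD4 or CD8 as coreceptor. LCK phosphorylates these chains, ZAP70 docks on them, and the adaptor LAT passes the signal on. Within hours of a stimulus T cells raise CD69, which retains them in tissue by removing the egress receptor S1PR1 from the surface, and later CD25, the high-affinity subunit of the IL-2 receptor, which Il2ra encodes. Neither CD69 nor CD25 nor the IL-7 receptor is restricted to T cells: NK cells, innate lymphoid cells and activated dendritic cells or other myeloid cells can carry them. Lag3, Havcr2 and Tigit encode inhibitory receptors that mark exhausted T cells when they stay high, and Havcr2 is also found on myeloid cells.

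The 3 genes listed here as activation genes, Cd69, Il7r and Il2ra, were higher in CpG1826 tumors. No other measured member passed the test. Cd69 rose 2.36-fold (95% confidence interval 1.95 to 2.85), Il7r 2.26-fold (1.78 to 2.87) and Il2ra 1.81-fold (1.41 to 2.33). Of the 20 measured identity genes, which encode CD3 chains, coreceptors, proximal signalling proteins, further T cell surface proteins and transcription factors, 0 passed in either direction. Of all 31 measured members 3 (limma, adjusted p under 0.05) were called higher, where 3.56% of all genes were called higher and 4.66% called in either direction. None was called lower, where 1.10% of all genes were. At an unadjusted p under 0.05, 4 members were lower (Cd3e, Lat, Cd5 and Cd7), beside 7.43% of all genes, and the 3 activation genes were higher, beside 8.13% of all genes. The values of the 2 groups did not overlap for the 3 activation genes and overlapped for the other 28 measured members, where 6.78% of all genes did not overlap. The members were chosen with earlier results of these data known, so these shares stand beside the counts as description and test nothing. The median log2 difference was -0.11 over the identity genes and -0.02 over all genes tested. The count called lower was the less stable one: it was 2 without PBS mouse 661, when Lat and Cd7 passed (limma adjusted p = 0.0491 and 0.0374), and 1 with array weights, when Cd7 passed.

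**Figure D1:**
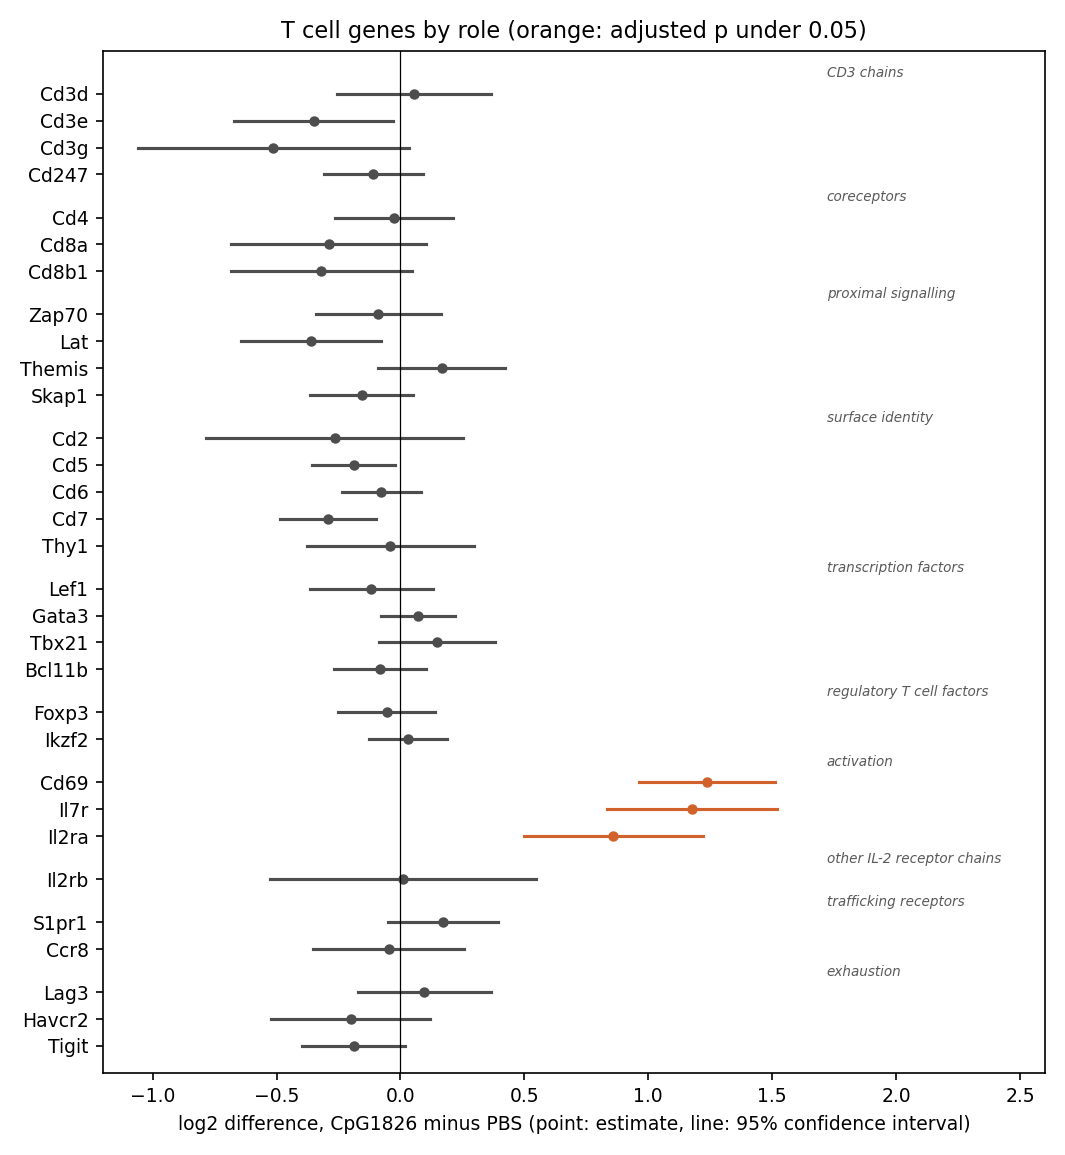
Log2 difference between CpG1826 and PBS tumors (x axis) for each of the 31 measured T cell genes (y axis, grouped by role), with the limma estimate as a point and its 95% confidence interval as a line. Cd69, Il7r and Il2ra lie at 1.24, 1.18 and 0.86, and the intervals of the 20 identity genes reach no higher than 0.42.

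Cd69, the early activation antigen, stood at log2 values of 6.17, 6.73, 6.71, 7.00 and 6.45 in PBS mice 26, 29, 482, 592 and 661. In CpG1826 mice 50, 58, 183, 189 and 595 it stood at 7.72, 8.0, 7.79, 7.91 and 7.82. All 5 CpG1826 tumors lay above every PBS tumor, and they lay closer together (SD 0.11) than the PBS tumors (SD 0.31). The log2 difference was 1.24 ± 0.13 (SE, n = 5 per group; limma with Benjamini-Hochberg adjustment, adjusted p = 6.55e-05).

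Il7r encodes the α chain of the IL-7 receptor, a survival receptor of naive and memory T cells. Its place among the activation genes is that of the list used here, and its rise is not read as T cell activation. Its log2 values were 8.31, 8.12, 8.38, 7.96 and 7.77 in PBS mice 26, 29, 482, 592 and 661, and 9.44, 9.17, 9.82, 8.95 and 9.05 in CpG1826 mice 50, 58, 183, 189 and 595. The lowest CpG1826 tumor was above the highest PBS tumor, and mouse 183 was the highest of all. The difference was 1.18 ± 0.16 (SE, n = 5 per group; limma adjusted p = 0.000545).

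Il2ra, the gene of CD25, stood at 6.38, 6.78, 6.61, 6.52 and 6.70 in the PBS mice in the same order. In the CpG1826 mice it stood at 6.88, 7.87, 7.88, 7.39 and 7.25. The groups were separated, but by a narrow gap, since mouse 50 lay just above the highest PBS tumor while mice 58 and 183 lay well above it. The difference was 0.86 ± 0.17 (SE, n = 5 per group; limma adjusted p = 0.00823), and 0.75 to 1.03 over 17 alternative settings, with a limma adjusted p between 0.00121 and 0.0327. Il2rb, the chain that IL-2 and IL-15 share, differed by 0.01 ± 0.25 (SE; 95% confidence interval -0.53 to 0.55), an interval wide enough to hold a change in either direction. Its lowest values were 7.77 in PBS mouse 661 and 7.67 in CpG1826 mouse 50, and the other 8 tumors lay between 8.32 and 9.01.

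**Figure D2:**
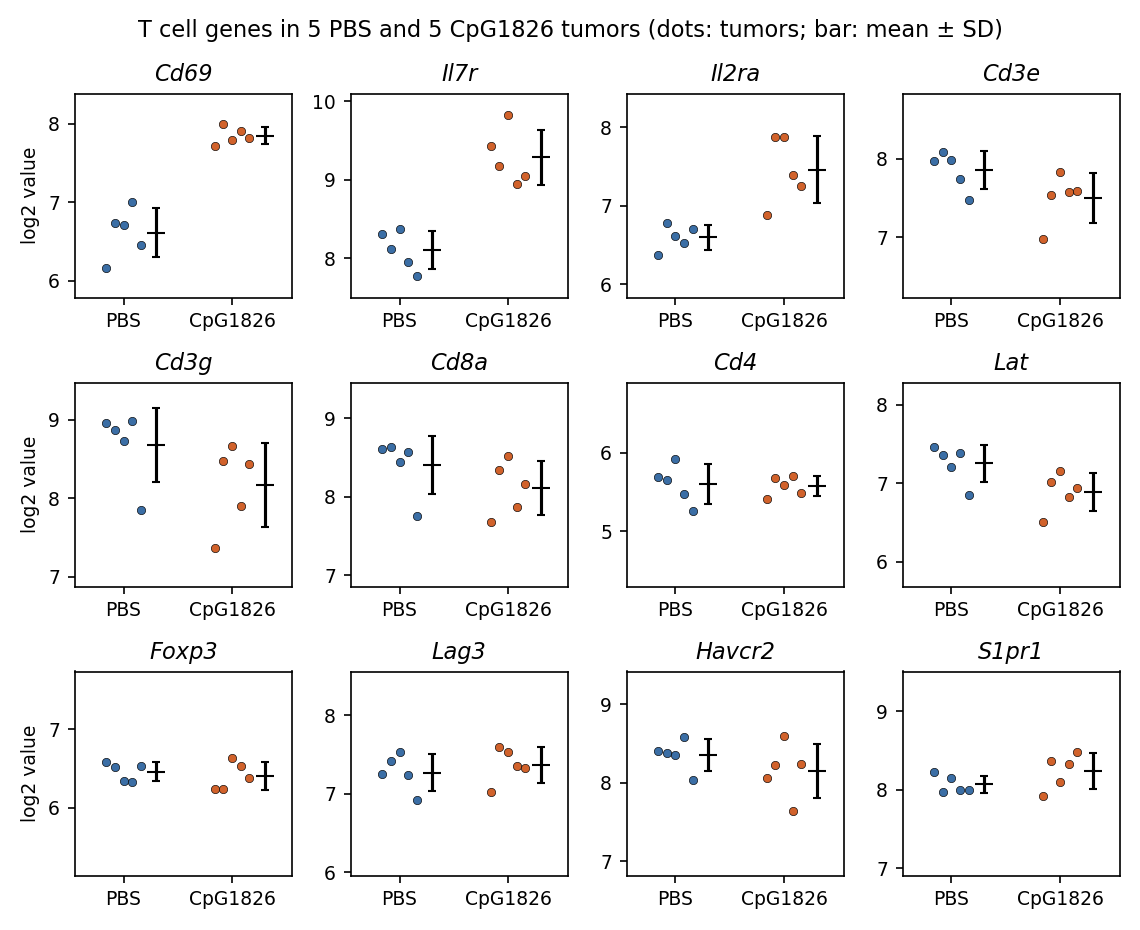
Log2 values (y axis) of 12 T cell genes in each of 5 PBS and 5 CpG1826 tumors (dots, in the order of the mice in the labels), with the mean ± SD of each group as a bar; every panel spans the same number of log2 units. The groups are apart for Cd69, Il7r and Il2ra and overlap in the other 9 panels.

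Promoter sequences were available from RefSeq (GRCm38.p6) for 22 of the 34 members. The 250 bases before the gene start are shown for Il2ra and Il7r, which rose, and for Cd3e and Cd3g, CD3 chains that did not pass the test. Capitals mark matches, on either strand, to 5 motifs that were searched: NF-κB (GGGA, any 4 bases, CC), AP-1 (TGANTCA), GAS, the STAT motif (TTC, any 3 bases, GAA), ISRE (GAAA, any 2 bases, GAAA) and NFAT (TGGAAA). The NFAT and ISRE letters can share bases.
Il2ra, chr2:11642542-11642791, plus strand: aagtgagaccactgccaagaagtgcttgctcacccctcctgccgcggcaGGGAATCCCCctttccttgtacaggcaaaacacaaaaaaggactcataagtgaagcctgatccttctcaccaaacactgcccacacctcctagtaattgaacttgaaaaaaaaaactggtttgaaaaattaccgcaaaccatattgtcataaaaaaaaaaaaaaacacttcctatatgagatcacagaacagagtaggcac
Il7r, chr15:9529877-9530126, minus strand: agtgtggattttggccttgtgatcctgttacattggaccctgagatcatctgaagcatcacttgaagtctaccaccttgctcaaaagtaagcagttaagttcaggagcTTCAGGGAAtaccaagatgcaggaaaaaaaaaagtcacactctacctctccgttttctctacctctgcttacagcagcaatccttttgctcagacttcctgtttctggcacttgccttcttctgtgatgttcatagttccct
Cd3e, chr9:45009612-45009861, minus strand: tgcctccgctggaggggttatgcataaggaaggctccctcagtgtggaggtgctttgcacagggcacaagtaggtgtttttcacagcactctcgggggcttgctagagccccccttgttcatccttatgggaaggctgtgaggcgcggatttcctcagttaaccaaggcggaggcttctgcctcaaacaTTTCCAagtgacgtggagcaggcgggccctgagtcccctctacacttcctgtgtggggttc
Cd3g, chr9:44980432-44980681, minus strand: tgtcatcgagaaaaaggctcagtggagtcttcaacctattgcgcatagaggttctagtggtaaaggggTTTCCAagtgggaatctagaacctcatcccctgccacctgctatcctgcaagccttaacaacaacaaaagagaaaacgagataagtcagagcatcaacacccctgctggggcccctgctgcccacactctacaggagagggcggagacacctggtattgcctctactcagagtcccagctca
The Il2ra window held 1 NF-κB match (GGGAATCCCC), 201 to 192 bases before the start. NF-κB letters occurred in 17.6% of the 32851 promoter windows of the same length. The Il7r window held 1 GAS match (TTCAGGGAA), 142 to 134 bases before the start, a motif found in 7.02% of windows. Both CD3 windows held the NFAT letters on the opposite strand (TTTCCA), which 18.6% of windows held on either strand. The motifs were not limited to genes that rose: NF-κB letters also lay in windows of Ccr8, Gata3, Lck and Zap70, and GAS letters in those of Cd3d and Foxp3. The NFAT letters also lay in windows of Foxp3, where they overlap the GAS match, Il2rg and Zap70, and AP-1 letters in that of Havcr2. A match describes these letters and is not evidence of binding.

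The CD3 chains form the signalling core of the T cell receptor. Cd3g, the γ chain, stood at 8.97, 8.87, 8.73, 8.99 and 7.86 in PBS mice 26, 29, 482, 592 and 661, and at 7.37, 8.48, 8.67, 7.90 and 8.43 in CpG1826 mice 50, 58, 183, 189 and 595. In 4 PBS tumors Cd3g was above all 5 CpG1826 tumors, and PBS mouse 661 lay among the low CpG1826 values. The difference of -0.51 ± 0.25 (SE; 95% confidence interval -1.06 to 0.03) did not pass (limma adjusted p = 0.360). Cd3e, the ε chain, had log2 values of 7.97, 8.08, 7.99, 7.74 and 7.48 in PBS and 6.98, 7.54, 7.83, 7.58 and 7.59 in CpG1826 tumors, in the same order of mice. It differed by -0.35 ± 0.15 (SE; -0.67 to -0.03, limma adjusted p = 0.267). Cd3d, the δ chain, whose start lies 1355 bases from that of Cd3g, differed by 0.05 ± 0.14 (SE), and Cd247, the ζ chain, by -0.11 ± 0.09 (SE).

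Among the coreceptors, the CD8 genes took the same order of tumors as Cd3g at the low end. Cd8a stood at 8.60, 8.63, 8.44, 8.57 and 7.76 in the PBS mice and at 7.67, 8.34, 8.52, 7.87 and 8.16 in the CpG1826 mice. PBS mouse 661 and CpG1826 mouse 50 were the lowest of their groups, and the groups overlapped. Cd8a differed by -0.29 ± 0.18 and Cd8b1, the β chain, by -0.32 ± 0.17 (SE; limma adjusted p = 0.504 and 0.403). Cd4, the coreceptor of helper and regulatory T cells, ranged from 5.26 to 5.93 in PBS and from 5.41 to 5.70 in CpG1826 tumors and differed by -0.03 ± 0.11 (SE; -0.27 to 0.21).

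Genes that relay the receptor signal were not separated between the groups. Lat, the adaptor, had log2 values of 7.46, 7.36, 7.21, 7.38 and 6.86 in PBS and 6.51, 7.02, 7.16, 6.83 and 6.94 in CpG1826 tumors. Again 4 PBS tumors lay above all CpG1826 tumors and mouse 661 did not. The difference of -0.36 ± 0.13 (SE; -0.64 to -0.08) had a limma adjusted p of 0.175, and 0.0491 to 0.327 over the 17 alternatives. Zap70, the kinase that docks on the CD3 chains, differed by -0.09 ± 0.12, Skap1, an adaptor of integrin activation, by -0.16 ± 0.10, and Themis, a regulator of T cell selection in the thymus, by 0.17 ± 0.12 (SE).

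The surface identity genes all had negative differences, and 0 of 5 passed. Of the 20 measured identity genes 16 had negative differences, where 11556 of all 19938 genes did. Cd7, an immunoglobulin-family receptor of T and NK cells, stood at 6.51, 6.63, 6.57, 6.53 and 6.26 in the PBS mice and at 6.31, 6.05, 6.08, 6.17 and 6.41 in the CpG1826 mice. Its groups overlapped through PBS mouse 661 alone among the PBS tumors. With -0.29 ± 0.09 (SE; -0.49 to -0.10), Cd7 had the lowest limma adjusted p of the members that did not pass (0.0981), and it passed in 2 settings, array weights and leaving out PBS mouse 661, besides one without PBS mouse 661 and CpG1826 mouse 50, which were picked on the identity genes. Cd5, an inhibitor of receptor signalling, differed by -0.19 ± 0.08 (SE; limma adjusted p = 0.252). Cd2, the CD48 receptor, differed by -0.27 ± 0.24, Cd6 by -0.08 ± 0.07 and Thy1, which fibroblasts also carry, by -0.04 ± 0.16 (SE).

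None of the 6 measured transcription factors of the T lineage and of regulatory T cells passed the test. Lef1, a factor of naive T cells, differed by -0.12 ± 0.12 (SE; -0.37 to 0.13), Gata3 and Tbx21, the factors of type 2 and type 1 helper cells, by 0.07 ± 0.07 and 0.15 ± 0.11, and Bcl11b, a factor of T lineage commitment, by -0.08 ± 0.09 (SE). Lef1 was highest of its group in PBS mouse 661 (7.59), where 16 of the 20 identity genes were lowest. Which cells of the tumor gave the signal of these factors was not tested. Foxp3, the defining factor of regulatory T cells, ranged from 6.33 to 6.58 in PBS and from 6.24 to 6.64 in CpG1826 tumors, a difference of -0.06 ± 0.09 (SE; -0.25 to 0.14). Ikzf2, which encodes Helios, differed by 0.03 ± 0.07 (SE; -0.13 to 0.19).

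The trafficking and the exhaustion genes did not pass either. S1pr1, the receptor that CD69 opposes at the protein level, had log2 values of 8.22, 7.97, 8.15, 8.0 and 8.0 in PBS and 7.93, 8.37, 8.09, 8.33 and 8.49 in CpG1826 tumors. The ranges overlapped, and the difference was 0.17 ± 0.10 (SE; -0.05 to 0.39, limma adjusted p = 0.473). Ccr8, a chemokine receptor of tumor regulatory T cells, differed by -0.05 ± 0.14 (SE). Among the exhaustion genes, Lag3, a receptor for MHC class II, differed by 0.10 ± 0.13 (SE; -0.17 to 0.37). Havcr2, which encodes TIM-3, differed by -0.20 ± 0.15 (SE; -0.52 to 0.12), and Tigit by -0.19 ± 0.10 (SE; -0.40 to 0.02). The upper bound of these 3 intervals was at most 0.37, and the lower bound of the 3 activation genes' intervals was at least 0.50.

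Single tumors differed widely in these genes. PBS mouse 661 had the lowest value of its group in 16 of the 20 identity genes, and CpG1826 mouse 50 in 16 of 20. Over all 19938 genes these arrays were the lowest of their group for 18.6% and 27.1%. Both were lowest of their group in 18 of the 31 measured members, a joint count that was not made over all genes. The pooled SD within groups was 0.50 for Cd3g, 0.49 for Il2rb and 0.48 for Cd2, against a median of 0.14 over all genes. It was 0.09 for Gata3 and 0.11 for Cd6, so the members did not all vary alike.

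**Figure D3:**
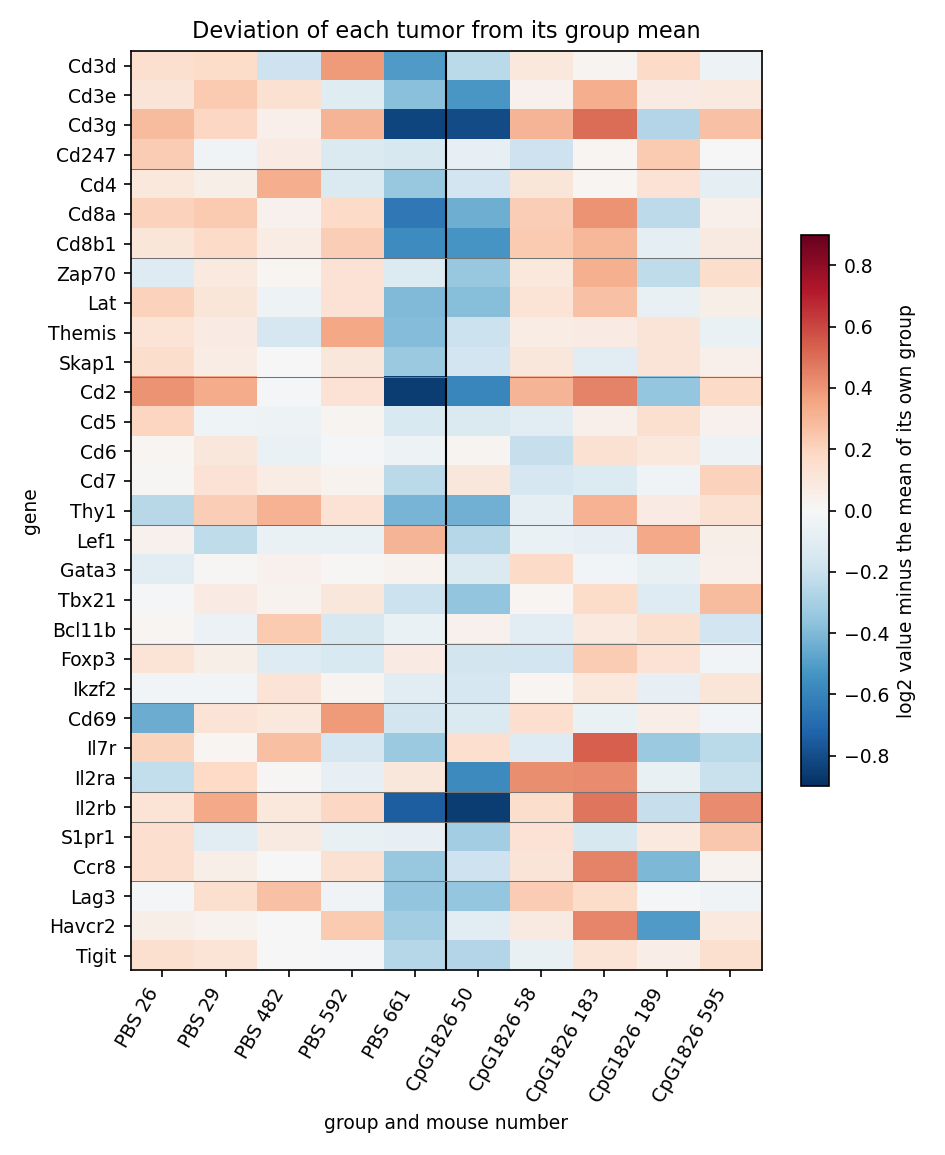
Log2 value of each of the 31 measured T cell genes (rows, in order of role) in each tumor (columns, by group and mouse number) minus the mean of that tumor's own group, as a color. Blue columns at PBS mouse 661 and CpG1826 mouse 50 mark their low values in most rows, with Cd3g at 7.86 and 7.37 and Cd2 at 7.32 and 7.33.

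Of the 10 measured NK markers, 8 were lowest of their group in PBS mouse 661 and 9 in CpG1826 mouse 50. Over all genes these arrays were lowest for 18.6% and 27.1%. The list holds Gzmb (granzyme B), which cytotoxic T cells share, so it is not separate from the T cell genes. Ncr1, the NK receptor NKp46, was chosen after its values were seen. It was 5.73 in PBS mouse 661, 5.12 in CpG1826 mouse 50 and 6.40 to 7.37 in the other 8 tumors. Other marker lists also stood apart in these tumors, in both directions. In PBS mouse 661 the mean of the macrophage and monocyte markers was the lowest of its group (9.77, against 10.10 to 10.19). So, narrowly, was the fibroblast mean (10.60, against 10.62 to 10.70). The fibroblast list holds Thy1, which is also 1 of the identity genes, so it is not separate from the T cell genes. Thy1 was itself lowest of its group in PBS mouse 661 (7.78), and the narrow fibroblast rank there may rest on it. Highest of the group in this mouse were the keratinocyte mean (5.95, against 5.38 to 5.74) and the neutrophil mean (5.83, against 5.59 to 5.68). By a narrow margin the dendritic cell mean (7.07, against 7.01 to 7.06) was highest there too. In CpG1826 mouse 50 the fibroblast mean (10.27, against 10.67 to 10.79) and the endothelial mean (7.22, against 7.29 to 7.55) were the group's lowest. So was the mast cell and basophil mean (6.33, against 6.55 to 6.66), and the neutrophil mean (6.70, against 6.26 to 6.59) was the highest. The part of these in the T cell values was not tested. With both mice left out, the 3 activation genes still passed, at 1.23 for Cd69, 1.06 for Il7r and 1.03 for Il2ra (n = 4 per group; limma adjusted p = 0.00105, 0.00695 and 0.00333). That comparison was chosen after seeing the data. Since these mice were picked for their low identity genes, leaving them out narrows the spread of those genes by construction, and nothing is read from the identity genes there. With all mice the identity genes averaged 7.03 ± 0.18 in PBS and 6.89 ± 0.17 in CpG1826 tumors (SD over 5 tumors each). The groups overlapped through PBS mouse 661 alone among the PBS tumors. The other PBS tumors lay at 7.07 to 7.13 and the CpG1826 tumors at 6.61 to 7.05.

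Activation and identity genes were set side by side within each tumor. The mean of Cd69, Il7r and Il2ra minus the mean of the 20 identity genes, in log2 units, was -0.18, 0.08, 0.16, 0.05 and 0.26 in PBS mice 26, 29, 482, 592 and 661. It was 1.40, 1.41, 1.45, 1.18 and 1.09 in CpG1826 mice 50, 58, 183, 189 and 595. The groups did not overlap, and the group means, 0.07 ± 0.16 and 1.31 ± 0.16 (SD, n = 5 per group), differed by 1.23. No p is given, because the members were chosen with results of these data known. CpG1826 mouse 50, with the lowest identity mean of all 10 tumors (6.61), had an activation mean of 8.01 and the second highest Il7r value, while its Il2ra value was the lowest of its group. PBS mouse 661, with the next lowest identity mean (6.72), had an activation mean of 6.97, within the PBS range.

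**Figure D4:**
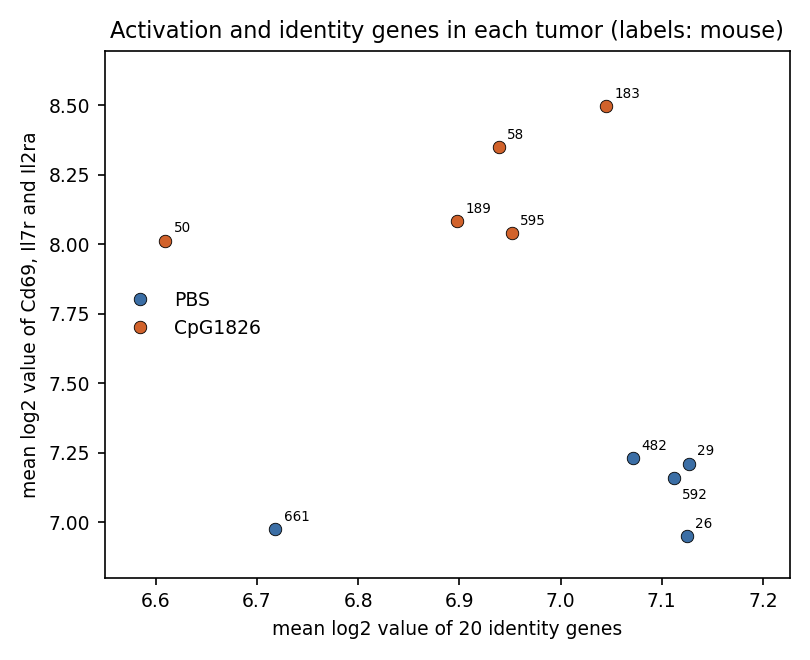
Mean log2 value of Cd69, Il7r and Il2ra (y axis) against the mean log2 value of the 20 measured identity genes (x axis) in each tumor (dots, labelled by mouse number). The CpG1826 tumors lie between 8.01 and 8.50 on the y axis and the PBS tumors between 6.95 and 7.23. On the x axis PBS mouse 661 (6.72) lies within the CpG1826 range of 6.61 to 7.05. The other PBS tumors lie above that range, at 7.07 to 7.13.

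Further genes of T cells were counted from lists of genes outside the 34 members. Of 25 measured genes of T cell receptor signalling, 2 rose and 1 fell (limma, median log2 difference 0.04). Over all genes 3.56% rose and 1.10% fell. At an unadjusted limma p under 0.05, 3 were higher and 2 lower, beside 8.13% and 7.43% of all genes. Malt1, the paracaspase that links antigen and other receptors to NF-κB, rose 1.97-fold (95% confidence interval 1.65 to 2.36). Vav1, a guanine nucleotide exchange factor of all blood cell lineages, rose 1.54-fold (1.22 to 1.93). Vav1 no longer passed when any 1 of PBS mice 26, 29, 482 and 661 or of CpG1826 mice 58, 183 and 595 was omitted, and its limma adjusted p ran from 0.0109 to 0.0833 across settings. Nfatc2, the calcium-dependent factor NFAT1, fell from 7.21 ± 0.07 to 6.76 ± 0.10 (SD, n = 5 per group), and its groups did not overlap (limma adjusted p = 0.00159). Sit1, named after its values were seen, differed by -0.26 ± 0.08 (SE; limma adjusted p = 0.0765). It passed as lower with further quantile normalization and with array weights (limma adjusted p = 0.0423 and 0.0320).

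Of 20 genes induced when T cells are activated, 3 rose and 0 fell (limma, median 0.13). Over all genes 3.56% rose and 1.10% fell. At an unadjusted limma p under 0.05, 7 were higher and 0 lower, beside 8.13% and 7.43% of all genes. Tnfrsf9, the costimulatory receptor 4-1BB, rose 2.71-fold (2.20 to 3.33), Batf, an AP-1 family factor, 2.01-fold (1.54 to 2.62) and Nr4a3, an immediate early nuclear receptor, 1.61-fold (1.35 to 1.92). All 3 are also made by activated myeloid cells. Of the 20 genes, 14 had positive and 6 negative differences. Il2 and Ifng, named after their values were seen, differed by -0.01 ± 0.09 and -0.03 ± 0.15 (SE). Their PBS means, 4.02 and 6.17, lay below the lowest array median (6.47).

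Among 18 measured genes of lymphocyte trafficking, 1 rose and 3 fell (limma, median -0.10). Over all genes 3.56% rose and 1.10% fell. At an unadjusted limma p under 0.05, 1 was higher and 4 were lower, beside 8.13% and 7.43% of all genes. Ccr7, the lymph node homing receptor of naive T cells and mature dendritic cells, rose 1.69-fold (1.36 to 2.09), with PBS mouse 26 (7.51) inside the CpG1826 range. Cxcr3, a receptor of effector T cells and NK cells for interferon-induced chemokines, stood at 8.11, 7.72, 7.75, 7.88 and 7.50 in the PBS mice and at 6.66, 7.22, 7.07, 7.29 and 7.20 in the CpG1826 mice. Every CpG1826 tumor lay below every PBS tumor, and Cxcr3 fell by 0.70 ± 0.13 on the log2 scale (SE; limma adjusted p = 0.00569). Itga4, the integrin α4 chain, fell by 0.58 on the log2 scale, and no longer passed when any 1 of PBS mice 26, 29, 482 and 592 was omitted. Its limma adjusted p ran from 0.00271 to 0.0624 across settings. Ccr2, a monocyte receptor that some T cells share, fell by 0.61 on the log2 scale. That call (limma adjusted p = 0.0495) was lost when any mouse but CpG1826 mouse 595 was left out (0.0158 to 0.127 over the alternatives).

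Of 9 measured genes linked to inhibition and exhaustion, 1 rose and 0 fell (limma, median 0.07). Over all genes 3.56% rose and 1.10% fell. The gene that rose was Nt5e, the ecto-enzyme CD73 that makes adenosine (1.58-fold, 1.36 to 1.84), which stromal cells also carry. Pdcd1 and Ctla4, the PD-1 and CTLA-4 checkpoint receptors, chosen after their values were seen, differed by 0.12 ± 0.15 and 0.34 ± 0.18 (SE; limma adjusted p = 0.757 and 0.400). Of 11 further T cell genes, 0 passed (limma). At an unadjusted limma p under 0.05, 2 were higher and 0 lower, beside 8.13% and 7.43% of all genes. Ets1, a factor of lymphocytes and vessels, and Zbtb7b differed by -0.02 ± 0.07 and 0.24 ± 0.07 (SE). Satb1, a chromatin organiser of T cells, had the largest difference of the list (0.37 ± 0.12, SE; limma adjusted p = 0.112), and was named after its values were seen. It passed with array weights (limma adjusted p = 0.0424). Zbtb7b, the factor that directs the CD4 lineage, did not overlap between the groups, and passed in 2 of 17 alternatives: when dim genes were filtered out at the median level (limma adjusted p = 0.0325) and under the trended, robust prior.

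Markers of other cell types that a grafted tumor can hold were counted in the same way. Over all genes 3.56% rose and 1.10% fell. At an unadjusted limma p under 0.05, 8.13% of all genes were higher and 7.43% lower. Of 10 neutrophil markers 6 rose, and the mean of the list was 5.59 to 5.83 in PBS and 6.26 to 6.70 in CpG1826 tumors. Those with the largest differences were S100a8 (4.37-fold), Cxcr2 (3.11-fold), S100a9 (2.74-fold) and Csf3r (2.14-fold), which encode calprotectin subunits and receptors for chemokines and G-CSF. Of 12 measured keratinocyte markers 8 rose, and the mean of that list was 5.38 to 5.95 in PBS and 6.93 to 7.52 in CpG1826 tumors. Its largest differences were in Krt1 (8.35-fold), Krt5 (7.75-fold), Krt14 (6.05-fold) and Krtdap (5.28-fold). Of 10 measured macrophage and monocyte markers Cd14 rose and Csf1r fell (list mean 9.77 to 10.19 and 10.01 to 10.38). Of 11 dendritic cell markers, Ccr7 alone rose (list mean 7.01 to 7.07 and 6.97 to 7.19). Of 10 NK markers, Gzmb, the protease granzyme B that cytotoxic T cells share, alone rose (2.23-fold, 1.65 to 3.01; list mean 5.89 to 6.88 and 5.94 to 7.07). At an unadjusted p under 0.05, 2 NK markers were higher and 0 lower. Prf1, the pore protein perforin, named after its values were seen, differed by 0.72 ± 0.20 (SE; limma adjusted p = 0.0578). Of 8 B cell markers 0 passed (limma; 1 lower at an unadjusted p under 0.05; list mean 5.04 to 5.23 and 4.87 to 5.22), and of 8 mast cell and basophil markers 0 passed (limma; 1 higher at an unadjusted p under 0.05). The part of these cells in the rise of Cd69, Il7r and Il2ra was not tested.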

How the data were processed

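Total RNA of 10 tumors was measured on whole-transcript arrays, 1 array a mouse. The authors deposited 1 value per probe on a log2 scale, read as log2 from its range (2.03 to 14.70). R 2.7.1 and limma appear in the submitters' processing notes, which give no role for them. The sources used here do not state the normalization. Array medians lay between 6.47 and 6.53, and precision is limited by there being 5 arrays a group. Of 35512 probes 21789 carried 1 gene symbol, 1621 several and 12102 none. For each gene the probe with the highest mean stood for it. All 19938 genes were fitted with lmFit and eBayes (limma 3.58.1, R 4.3.3, two-sided), with Benjamini-Hochberg adjustment over all of them and a threshold of 0.05. The fit was tested on simulated data. The mice carry different numbers in the 2 groups, so nothing was paired, and no batch was used. Nothing shows that tumors were handled independently, so p-values set the group difference only against the spread within these groups. A difference in handling between the groups cannot be told apart from the treatment. Members and lists were chosen with earlier results of these data known. Genes named outside the members were, in each list, up to 4 called genes with the largest difference, or the 2 with the highest level where none was called. Exceptions are stated. The 2 genes were not named for the B cell, mast cell and basophil, and fibroblast lists. Marker lists of fibroblasts and endothelial cells were also run: 0 of 8 fibroblast and 1 of 7 endothelial markers (Tek, lower) passed. Over all genes 4.66% passed in either direction. Alternatives were further quantile normalization, median centring, a filter on dim probes, array weights, a prior with trend and robust fitting, averaging over the probes of a gene, and leaving out mice.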

Additional observations from a re-analysis of the deposited data

Results flagged for a closer look

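Dixon's test for 1 value apart from the other 4 was applied to each measured member in each group, 62 sets of 5 values. It marked 5 of them. Chance marks about 1 in 20 of independent sets. These sets come from the same 10 tumors and are not independent, so that rate is no yardstick for the count. PBS mouse 661 was the low value in 4: Cd3g at 7.86 (the next PBS value was 8.73), Cd8a at 7.76 (8.44), Cd8b1 at 6.99 (7.63) and Il2rb at 7.77 (8.61). Gata3 was low in PBS mouse 26, at 7.46 (7.57). CpG1826 mouse 50, though lowest of its group in most members, was marked in 0 of them.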

How the results depend on the processing

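Over the 17 alternatives the number of members called higher was 3 in every one, and these were Cd69, Il7r and Il2ra in each. Averaging over the probes of a gene could not change the values of any member, since all 31 had 1 probe. The number called lower, 0 in the comparison as reported, was 1 with array weights and 1 with PBS mouse 661 and CpG1826 mouse 50 both left out, an alternative chosen after seeing the data and on the identity genes themselves. It was 0 to 2 when 1 mouse was left out. In the other T cell lists the number called higher was 7 as reported and 6 to 7, and the number called lower 4 as reported and 2 to 4, when 1 mouse was left out (2 without PBS mouse 26, 29, 482 or 592). Over all alternatives these counts ran from 6 to 9 higher and from 2 to 5 lower. The difference between activation and identity genes, 1.23 as reported, was 1.17 to 1.29 when 1 mouse was left out. The sign of the difference changed under some alternative for 7 members, none of them past the threshold under any setting. With dim genes filtered out at the median level, 9969 genes and 19 members were tested, so the other measured members have no value there. No paired analysis was possible because the mouse numbers differ between the groups. Dim probes can compress differences, so a small change in a dim gene can be missed, and detection calls were not used here.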
